A study of Orbicella faveolata with 56 samples.

Results

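The comparison set corals of offshore origin against corals of inshore origin, all kept at 30 °C at an offshore transplant site. It held 14 of the 56 libraries of the series, chosen by the labels for temperature, transplant site and origin alone. The 6 offshore-origin corals (C1 to C6) carried the genotype labels O1 to O6. The 8 inshore-origin corals carried 6 genotype labels: A3, A5 and A6 shared In1, B6 was In2, and B1, B2, B3 and B4 were In4, In5, In6 and In7. Counts of A3, A5 and A6 were summed, so that 6 genotypes stood against 6.

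Orbicella faveolata is a boulder-forming coral of Caribbean and Florida reefs, and the libraries were RNA sequencing libraries of its tissue. Fragments of each coral had been placed at an inshore or an offshore site in the Florida Keys and then kept at 30 °C, the control temperature, or brought to 32 °C. The label IKO2 was the collection site of all 6 offshore-origin corals, whereas the inshore-origin corals came from UKI1 (B3, B4 and B6), UKI2 (the In1 corals) and UKI3 (B1 and B2). Offshore origin and the reef IKO2 therefore cannot be told apart in these libraries.

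Reef-building corals are animals that house photosynthetic dinoflagellates inside cells of their gastrodermis and draw much of their energy from them. Colonies can hold different symbiont species, and Durusdinium trenchii is a species known for its association with corals in warm or variable water. Inshore reefs of the Florida Keys are known for wider swings of temperature and turbidity than offshore reefs, and a coral moved between reefs can change its transcription and its symbionts while its genotype stays the same.

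Expression was read from a table of 87440 assembled transcripts, taken here as the coral host, and symbiont RNA from a table of 52359 rows for D. trenchii. Host totals ran from 3781534 to 5740475 estimated counts in the 6 offshore-origin libraries and from 4345578 to 5193703 in the 8 inshore-origin libraries. The files do not pair the row identifiers with gene names, so the tissue could not be set against marker genes and rows are named by identifier only. All 14 libraries correlated best with another library of their own genotype among the 55 that could be matched to a label. Among the 14, C3 (genotype O3) had the lowest mean correlation with the other libraries of the series, 0.834, and was the only library of the set to fall over 3 median absolute deviations below the median of all libraries. B6 (0.838) and B3 (0.844) were close to it.

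Few host transcripts, if any, were called between origins at the offshore site, depending on the method. Of 24878 rows tested on genotype sums, 0 (0%) passed an adjusted p of 0.05 in edgeR's quasi-likelihood test with Benjamini-Hochberg adjustment, and the smallest adjusted p was 0.9998. At an unadjusted p under 0.05 in edgeR there were 752 rows (3.02% of those tested), 466 of them higher (1.87%) and 286 lower (1.15%) in offshore-origin corals. That share is no larger than the 5% expected from the threshold alone and is not read as a result. DESeq2 called 3 rows and limma-voom with sample quality weights called 0, with 921 and 1252 of 24878 rows at an unadjusted p under 0.05. With genotype In1 left out edgeR called 1 row. With O3 left out it called 0, while 1522 of 25878 rows had an unadjusted p under 0.05. The limma-voom count and the count without O3 lie above 5% of the rows tested, so the share depends on method and samples.

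The precision set what could be seen. The standard error of the log2 difference between origins had a median of 0.31, with quartiles of 0.20 and 0.45. For 14433 rows (58.0%) the 95% interval of the difference lay wholly within a 2-fold change in either direction, and for 22526 rows (90.5%) within 4-fold. The median log2 difference over all rows was 0.00. A difference of more than 2-fold was estimated for 849 rows (3.41%), 487 higher and 362 lower in offshore-origin corals, of which 205 higher and 109 lower had an unadjusted edgeR p under 0.05. None passed adjustment.

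The correlation between genotypes did not follow origin. Across the tested rows, Pearson's r of log2 CPM (counts scaled to the library total, with a prior count of 2) had a median of 0.851 over the 36 pairs of 1 offshore-origin and 1 inshore-origin genotype, with a range of 0.778 to 0.889. Within the offshore origin the median was 0.832 (15 pairs, 0.786 to 0.881), and within the inshore origin it was 0.854 (15 pairs, 0.806 to 0.891). The mean of 1 − r between origins minus that within origins was −0.00374, a value that an exact two-sided permutation test over the 924 assignments of 12 genotypes did not separate from 0 (p = 0.491, adjusted p = 0.655 over 4 such tests). The smallest p this design allows is 0.00216. The nearest genotype had the same origin for 2 of 6 offshore-origin and 3 of 6 inshore-origin genotypes. In1, summed from 3 corals, was the nearest genotype of In4, In5, O4 and O5.

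**Figure D1:**
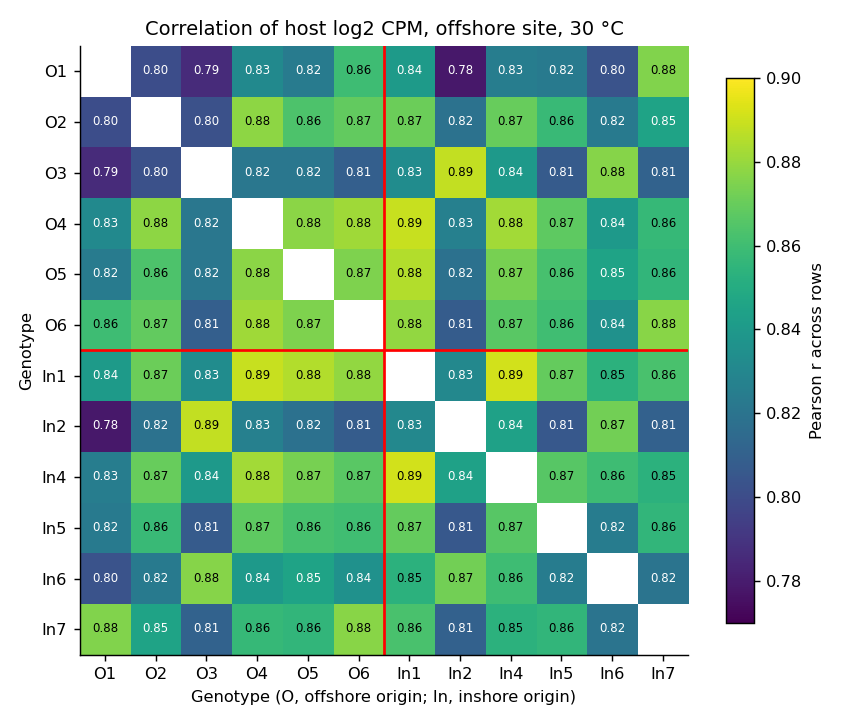
Pearson's r of host log2 CPM across the tested rows for each pair of the 12 genotypes at the offshore site at 30 °C; rows and columns give genotypes, colour and number give r, and red lines divide offshore-origin (O) from inshore-origin (In) genotypes. The blocks between origins (median 0.851) are no paler or darker as a whole than the blocks within an origin (medians 0.832 and 0.854), and O3 pairs most closely with In2 and In6.

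The corals of 1 genotype resembled each other far more than the genotypes of 1 origin did. The 3 libraries of In1 correlated at 0.954 to 0.964, above every pair of different genotypes in the set. Over 24872 rows with a mean log2 CPM of at least 1, the median SD of log2 CPM was 0.501 among the 6 offshore-origin genotypes, 0.467 among the 6 inshore-origin genotypes and 0.232 among the 3 In1 corals. The SD among In1 corals was below the SD of both sets of genotypes in 76.2% of rows. The median absolute difference between origin means was 0.18 on the log2 scale, and it was smaller than the pooled SD in 91.9% of rows. Only In1 had more than 1 coral, so the spread within a genotype rests on that genotype.

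Offshore-origin genotypes had the larger SD in 55.1% of rows. The mean of 1 − r among them was 0.00789 greater than among inshore-origin genotypes (exact two-sided permutation p = 0.675). All 6 offshore-origin genotypes shared a collection site, and their mean r with each other was 0.840, beside 0.866 with the inshore-origin genotype of UKI2, 0.853 with those of UKI3 and 0.838 with those of UKI1. The 3 genotypes of UKI1 had a mean r of 0.834 with each other. The genotype of UKI2 was In1, the sum of 3 corals, with 13815044 counts and the highest mean r with the other genotypes (0.864). Its r is therefore not on equal terms with that of genotypes of 1 coral.

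Transcripts that were high or low in single libraries made up the largest component of variation. The first principal component held 22.3% of the variance, and its scores were 103.7 for O3 of offshore origin against 103.6 for In2 and 76.4 for In6 of inshore origin, with all other 9 genotypes at −1.07 or below. The 200 rows with the highest loadings on it took 10.8% of host counts in coral C3 (O3), against 10.2% in B6 (In2), 7.48% in B3 (In6) and 1.81% in B1 (In4). In the 5 other offshore-origin corals the same rows took 0.333% to 0.534%. The 200 rows were chosen on these libraries, so these shares describe them and test nothing.

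The 200 rows with the highest loadings were measured in libraries that played no part in their choice. Among the 41 other libraries of the series, the share was under 1% in 36, with a median of 0.449%, and over 3% in 4. Those 4 were C2 of offshore origin at the inshore site at 32 °C (3.59%), B1 at the offshore site at 32 °C (12.2%), B3 at the inshore site at 32 °C (12.2%) and B6 at the inshore site at 30 °C (4.89%). Coral C3 had 0.469% in its offshore fragment at 32 °C and 0.383% in its inshore fragment at 30 °C. B6 likewise had 0.406% and 0.431% in its libraries at 32 °C. The high shares thus occurred in both origins, at both sites and at both temperatures, and a coral that was high in 1 condition was low in another. Of the 200 rows, 9 had an unadjusted edgeR p under 0.05 between origins, against 3.02% of all rows.

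**Figure D2:**
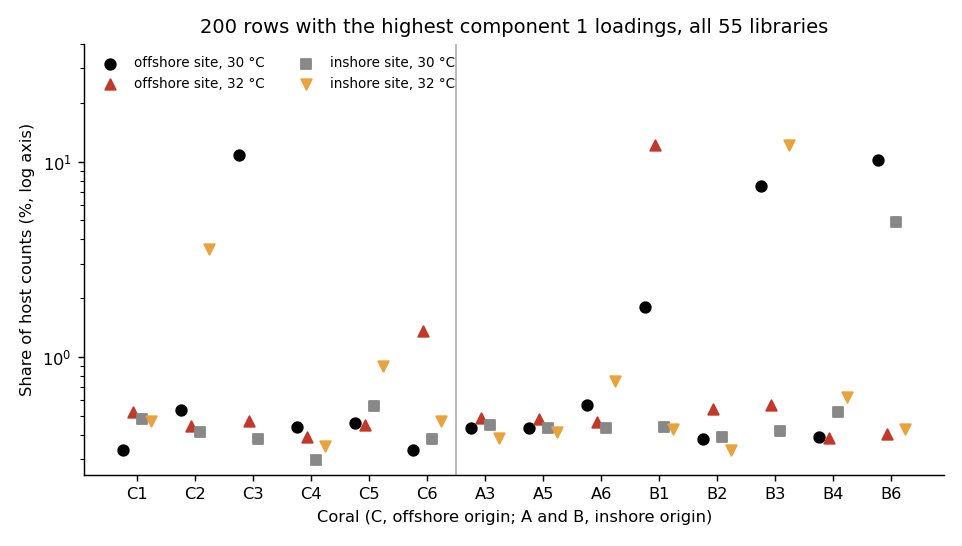
Share of host counts (percent, log axis) taken by the 200 rows with the highest loadings on component 1, in every matched library; corals run along the x axis with offshore origin on the left, and symbols give transplant site and temperature. At the offshore site at 30 °C (black circles) C3 is at 10.8%, B6 at 10.2% and B3 at 7.48%, and most other libraries of the series lie under 1%.

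Few single transcripts kept the origins apart. The 6 offshore-origin genotypes did not overlap the 6 inshore-origin genotypes in 33 of 24878 rows (0.133%), 19 of them higher (0.0764%) and 14 lower (0.0563%) in offshore-origin corals. The count moved with the samples used. It was 146 of 25878 rows without O3, and 54 to 91 rows with any other genotype left out. It was 18 of 25622 rows with corals as samples and 112 of 78278 with no low-count filter. Against the inshore-origin genotypes of UKI1 alone it was 401 of 28158, and against those of UKI2 and UKI3 it was 553 of 28303, with fewer genotypes to keep apart. Under random assignment of origins, a row would split 6 against 6 genotypes at a rate of 0.00216, and more often with fewer genotypes. The counts are therefore not read as a result. The fitted differences were small, with a median of 1.89-fold for the higher rows and 1.63-fold for the lower rows, and 8 higher and 5 lower rows exceeded 2-fold. The gap between the nearest genotypes of the 2 origins was at most 0.38 on the log2 scale. At the inshore site at 30 °C, where fragments of the same genotypes gave other libraries, 31 of the 33 rows could be measured, 25 had the same sign and 0 remained separated, against a background of 46 separated rows (0.178%). At the offshore site at 32 °C the counts were 27 of 32 with the same sign and 0 separated, against 69 rows (0.267%) overall. Since the genotypes are the same, these libraries repeat the measurement but not the sampling of corals. The share of all tested rows with the same sign was not computed, so the sign counts are not read as a result.

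The 2 higher and 2 lower rows with the smallest edgeR p are given with their values, although none passed adjustment (adjusted p = 0.9998 for each). OFAVBQ_DN223872_c0_g1 had 39.2, 39.4, 39.8, 39.1, 41.2 and 30.1 CPM in O1 to O6, against 13.6, 22.6, 11.5, 25.8, 11.4 and 11.8 CPM in In1, In2, In4, In5, In6 and In7. Every offshore-origin genotype lay above every inshore-origin one, and 5 of the 6 offshore-origin values were close to each other. The means were 38.1 ± 4.01 CPM for offshore origin and 16.1 ± 6.40 CPM for inshore origin (SD, n = 6 each). The log2 difference was 1.24 ± 0.23 (SE, edgeR unadjusted p = 0.000116).

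OFAVBQ_DN210799_c0_g5 had 8.58, 11.3, 5.47, 9.47, 6.10 and 7.48 CPM in O1 to O6, against 3.99, 4.21, 4.30, 4.05, 3.30 and 3.85 CPM in In1, In2, In4, In5, In6 and In7. The genotypes did not overlap, but the near-constant inshore values hide a difference among the corals of In1, which had 7.70 (A3), 2.94 (A5) and 1.59 CPM (A6). Coral A3 thus lay within the offshore-origin range. The log2 difference was 1.03 ± 0.22 (SE, edgeR unadjusted p = 0.00048).

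Of the lower rows, OFAVBQ_DN204312_c3_g1 had 0, 0.540, 1.21, 2.17, 0.406 and 0.575 CPM in O1 to O6, against 6.09, 2.44, 9.82, 11.1, 1.78 and 15.4 CPM in In1, In2, In4, In5, In6 and In7. The ranges met only through O4, which lay above In6. The log2 difference was −3.21 ± 0.70 (SE, edgeR unadjusted p = 0.000509), the largest of the 4 in size. OFAVBQ_DN216124_c0_g1 had 7.85, 4.68, 6.68, 3.16, 6.91 and 3.64 CPM in O1 to O6, against 8.82, 22.8, 17.4, 13.2, 11.7 and 10.9 CPM in In1, In2, In4, In5, In6 and In7. All inshore-origin genotypes lay above all offshore-origin ones, with In1 nearest to O1. The log2 difference was −1.37 ± 0.30 (SE, edgeR unadjusted p = 0.000595).

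These 4 rows had the same direction in the other libraries of the same genotypes. At the offshore site at 32 °C, OFAVBQ_DN223872_c0_g1 had a median of 29.01 CPM (25.1 to 46.03) in offshore-origin and 13.8 CPM (10.5 to 26.8) in inshore-origin genotypes, with an edgeR log2 difference of 1.04 ± 0.23 (SE). For the same row at 30 °C inshore the medians were 30.5 CPM (12.8 to 55.2) and 15.7 CPM (12.2 to 25.9), with a log2 difference of 0.91 ± 0.33 (SE), and O1 and O6 lay within the inshore-origin range. OFAVBQ_DN204312_c3_g1 had a median of 1.47 CPM (0 to 1.98) against 8.10 CPM (1.46 to 19.3) at the offshore site at 32 °C. At the inshore site at 30 °C its medians were 1.19 CPM (0 to 2.48) against 10.5 CPM (2.04 to 22.7). For that row the origins overlapped in both conditions. OFAVBQ_DN216124_c0_g1 differed by −1.31 ± 0.34 at 32 °C offshore and by −1.26 ± 0.31 at 30 °C inshore (log2, SE), whereas OFAVBQ_DN210799_c0_g5 differed by 0.47 ± 0.21 and 0.62 ± 0.26. None of the 4 passed adjustment in either condition, where edgeR called 0 rows between origins. At an unadjusted p under 0.05 there were 1477 of 25810 rows at 32 °C offshore and 1205 of 25828 at 30 °C inshore.

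**Figure D3:**
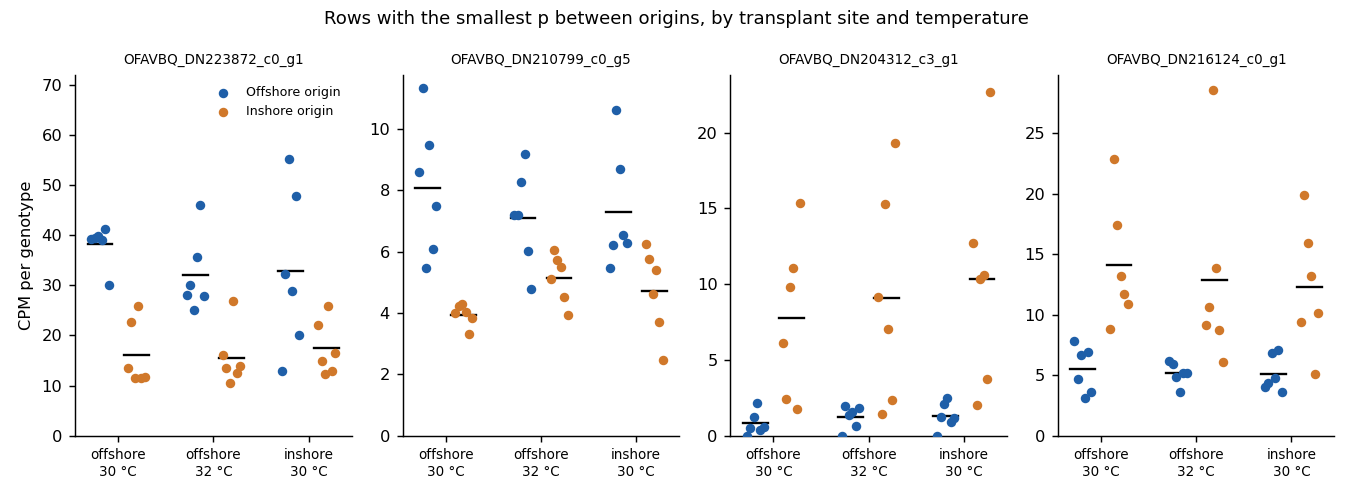
CPM per genotype for the 4 rows with the smallest p between origins, at the offshore site at 30 °C, the offshore site at 32 °C and the inshore site at 30 °C; each point is 1 genotype (blue offshore origin, orange inshore origin, 6 each) and each bar a mean. The left pair of each panel is the comparison that chose the rows, and OFAVBQ_DN223872_c0_g1 has 38.1 against 16.1 CPM there.

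Presence or absence of a transcript did not mark the origins. Of 78278 rows with any count in the set, 20065 (25.6%) had at least 5 counts in all 12 genotypes. There were 0 rows with at least 5 counts in every genotype of 1 origin and 0 counts in every genotype of the other. In contrast, 386 rows had at least 5 counts in a single genotype and 0 in the other 11, 134 of them in In1, which had the depth of 3 libraries. At equal depth a genotype had 46008 ± 640 rows detected in offshore-origin and 46632 ± 2013 in inshore-origin corals (SD, n = 6 each, exact two-sided permutation p = 0.489). In1 had the most rows, 49440, and its sum of 3 corals was thinned in depth but not in number of corals. The origin difference was −624 rows, but −90.4, 35.6 and −155 with In1 represented by A3, A5 or A6 alone. A count of 0 allows up to 3 counts by counting error, so absence here means a level under that limit.

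D. trenchii RNA was low in every offshore-origin coral of the set and varied widely among inshore-origin corals. Its share of counts over both tables was 0.164%, 0.0792%, 0.158%, 0.184%, 0.130% and 0.0824% in C1 to C6. It was 0.506% in A3, 0.260% in A5, 4.82% in A6, 0.134% in B1, 25.1% in B2, 0.109% in B3, 0.153% in B4 and 0.161% in B6. The inshore-origin range enclosed 4 of the 6 offshore-origin values, and B2 (In5) stood far above the rest. Counting error was small against these gaps, with Wilson 95% intervals of 0.0769% to 0.0815% for C2 and 25.1% to 25.2% for B2.

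On the log2 scale the ratio of D. trenchii to host counts had an SD of 0.53 among offshore-origin and 3.31 among inshore-origin genotypes. Its mean was 2.10 lower in offshore-origin corals, which the exact two-sided permutation test did not separate from 0 (p = 0.154, adjusted p = 0.615 over 4 tests). Without In5 the difference was −0.91 (exact permutation p = 0.245). The 3 corals of In1 differed by more than 10-fold among themselves, although they shared genotype, site and temperature. In bulk tissue, fewer symbiont cells and less RNA per cell cannot be told apart, and symbionts other than D. trenchii were not analysed here.

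The same genotypes at the inshore site at 30 °C had another pattern. Offshore-origin corals had 20.1%, 22.5%, 23.04%, 26.8%, 17.1% and 11.1% in C1 to C6. The inshore-origin genotypes had 9.39% (In1), 0.0936% (In2), 0.666% (In4), 24.2% (In5), 2.39% (In6) and 0.0864% (In7). All 6 offshore-origin genotypes were thus higher at the inshore site than at the offshore site, while In2 and In7 stayed low and In5 high at both.

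**Figure D4:**
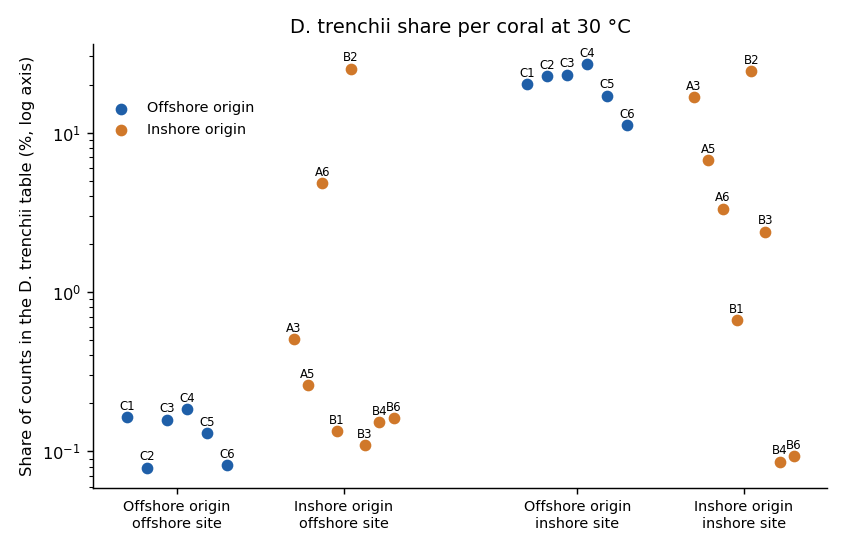
Share of counts in the D. trenchii table (percent of both tables, log axis) per coral at 30 °C, at the offshore site (left) and the inshore site (right), with offshore-origin corals in blue and inshore-origin corals in orange. At the offshore site the offshore-origin corals lie between 0.0792% and 0.184%, and B2 is at 25.1%; at the inshore site offshore-origin corals lie between 11.1% and 26.8%.

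Whether the origin difference at the offshore site departed from that at the inshore site was tested at 30 °C in a single fit with genotype as a block. Of 29762 rows, 49 (0.165%) passed an adjusted p of 0.05 in edgeR's quasi-likelihood test, 30 more positive (0.101%) and 19 more negative (0.0638%) at the offshore site. The larger origin difference was at the inshore site in all 49. Among the 30 positive rows the median difference, offshore minus inshore origin on the log2(CPM + 1) scale, was 0.53 at the offshore and −2.81 at the inshore site. Among the 19 negative rows it was −1.13 and 2.79. Of the 49 rows, 34 also entered the origin test at the offshore site, where 2 had an unadjusted edgeR p under 0.05, beside 3.02% of all rows tested, and 0 kept the origins apart.

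The summed level of the 30 positive rows at the offshore site had a median of 881 CPM (740 to 1613) in offshore-origin genotypes and 977 CPM (23.4 to 1462) in inshore-origin genotypes. In5 held the value of 23.4 CPM, and the other 5 inshore-origin genotypes lay between 875 and 1462 CPM. At the inshore site the medians were 6.38 CPM (4.29 to 59.3) and 568 CPM (4.44 to 645), again with In5 lowest among inshore-origin genotypes. The 19 negative rows showed the reverse, with 14.2 CPM (9.67 to 19.4) in offshore-origin and 30.2 CPM (13.5 to 828, In5 highest) in inshore-origin genotypes at the offshore site, and 748 CPM (346 to 988) and 50.2 CPM (8.37 to 821) at the inshore site. The D. trenchii share moved with both sums. Where it was 11.1% or more, which held for the 6 offshore-origin genotypes at the inshore site and for In5 at both sites, the positive rows summed to at most 59.3 CPM and the negative rows to at least 346 CPM. Everywhere else it was at most 9.39%, with at least 302 CPM in the positive rows and at most 266 CPM in the negative rows. These limits were read off the values themselves. The rows were called because the origin difference changed with site, and offshore-origin genotypes had high shares at the inshore site alone. The match for those genotypes was therefore largely set by the choice of rows. Among the inshore-origin genotypes In5 alone had such high shares, and In5 was sampled only as coral B2. The match among inshore-origin genotypes thus rests on that coral. A symbiont cause was not tested by these sums.

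**Figure D5:**
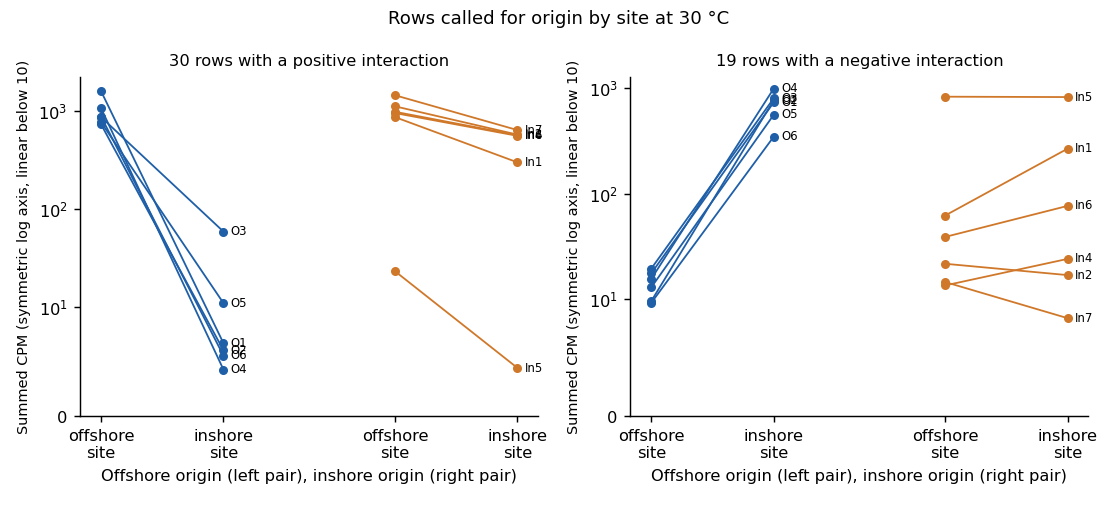
Summed CPM of the 30 rows with a positive (left) and the 19 rows with a negative (right) origin by site interaction at 30 °C, on a symmetric log axis that is linear below 10; each line joins 1 genotype at the offshore and the inshore site, offshore origin in blue and inshore origin in orange. At the offshore site all genotypes but In5 lie between 740 and 1613 CPM for the positive rows, and In5 is at 23.4 CPM.

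With the log2 ratio of D. trenchii to host counts added to the block, edgeR called 0 of 29762 rows (1649 at an unadjusted p under 0.05). Without the block it called 0 (342). With that term the fitted log2 interaction was 6.13 against 6.32 without it for the positive row OFAVBQ_DN303957_c0_g1, and 6.13 against 6.24 for the positive row OFAVBQ_DN122952_c0_g1. It was −3.79 against −9.63 for the negative row OFAVBQ_DN175037_c0_g1 and −2.93 against −9.51 for the negative row OFAVBQ_DN174110_c0_g2, fitted values that rest on a group at 0 counts and depend on the prior count. The size of the 2 positive rows thus changed little while their calls were lost, and the 2 negative rows became smaller. Each positive row had 0 counts in 5 of 6 offshore-origin genotypes inshore, and without O3 the values were 7.75 and 9.40 with no such term. The mean log2 ratio was −9.63 offshore and −2.04 inshore in offshore-origin genotypes, against −7.53 and −6.29 in inshore-origin genotypes. The term therefore overlaps the interaction, and the lost calls cannot decide whether the symbiont plays a part. The part of symbiont sequence in host rows was not tested. The 49 rows fell in 42 clusters of the assembly, and 6 clusters held a positive and a negative row side by side. By log2 interaction, 1 such cluster held OFAVBQ_DN122952_c0_g1 (6.24) and OFAVBQ_DN122952_c0_g2 (−7.22). Another held OFAVBQ_DN174110_c0_g2 (−9.51) and OFAVBQ_DN174110_c0_g1 (5.29). Rows of 1 cluster are related sequences, so the split of reads between them is uncertain.

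The rows named for the interaction followed the same course. OFAVBQ_DN303957_c0_g1 had 17.3, 5.09, 7.89, 9.74, 5.32 and 9.10 CPM in O1 to O6 at the offshore site, against 8.26, 9.35, 7.87, 0, 10.2 and 11.9 CPM in In1, In2, In4, In5, In6 and In7. The origins overlapped there, and In5 had 0 counts. At the inshore site 5 of 6 offshore-origin genotypes were at 0, with 0.230 CPM in O3, against a median of 4.66 CPM (0 to 6.88) in inshore-origin genotypes (interaction adjusted p = 0.000225, edgeR). OFAVBQ_DN122952_c0_g1 had a median of 28.97 CPM (22.9 to 51.6) in offshore-origin and 33.05 CPM (1.07 to 51.4) in inshore-origin genotypes at the offshore site, with 0 CPM (0 to 1.15) and 17.2 CPM (0 to 22.1) inshore (adjusted p = 0.000283, edgeR).

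OFAVBQ_DN175037_c0_g1 had 0 counts in all 6 offshore-origin genotypes at the offshore site, against 3.53, 0, 0.207, 62.3, 0.255 and 0 CPM in In1, In2, In4, In5, In6 and In7. At the inshore site the same offshore-origin genotypes had a median of 48.3 CPM (24.5 to 61.2), against 2.50 CPM (0 to 57.6) in inshore-origin genotypes (interaction adjusted p = 0.0228, edgeR). OFAVBQ_DN174110_c0_g2 was likewise at 0 counts in all 6 offshore-origin genotypes at the offshore site and at a median of 0.111 CPM (0 to 51.996) in inshore-origin genotypes, with 46.5 CPM (17.4 to 70.8) and 2.41 CPM (0 to 59.0) at the inshore site (adjusted p = 0.0483, edgeR). In both rows the inshore-origin value was highest in In5, the genotype with 25.1% D. trenchii, and next highest in In1, which had 2.01%.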

How the data were processed

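Stranded mRNA libraries were made from column-purified total RNA, per the labels' protocols. The submitters' processing notes name Trimmomatic 0.36 and RSEM, whereas the deposited tables are named for kallisto, so the quantifier of the counts is unknown. No source used here gives its version or the reference assembly. The authors deposited estimated counts per row without normalization, of which 74.7% of host values and 99.3% of symbiont values were whole, and all were rounded before testing. The host table had 1 column that matched no label, as did the symbiont table, and neither was used.

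Counts were summed per genotype. No pair of libraries in the set agreed within sampling noise (lowest chi-square per degree of freedom 6.40, rows with at least 20 counts). edgeR 4.0.16 in R 4.3.3 was run with TMM factors, filterByExpr by origin (minimum count 10), the quasi-likelihood F test and Benjamini-Hochberg adjustment at 0.05. The interaction fit had genotype as a block, since same-numbered units are fragments of the same genotype: all 14 libraries correlated best with a library of their own genotype. Single values were tested by exact two-sided permutation over 12 genotypes. Labels do not state that corals of different genotypes are unrelated, so p-values measure the spread between these samples.

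CPM scales counts by TMM-adjusted totals. Named rows are the 2 higher and 2 lower with the smallest p, or for the interaction the largest log2 values, at a mean log2 CPM of at least 1. Gene lists and cell type markers were not tested, because identifiers come without names. The members, lists and rules were chosen with earlier results of these data known. Wilson intervals and the limit of 3 counts cover counting error only. Each SE of an edgeR difference was derived as the absolute log2 difference divided by the square root of the F statistic. The intervals of the origin difference were built from this approximate SE and also include the spread between genotypes. Alternatives were RLE factors, DESeq2 1.42.0, limma-voom (limma 3.58.1), no low-count filter, other handling of In1, subsets by collection site, terms for library number or symbiont ratio, no replicate block, other correlation and detection settings, and each genotype left out. The scripts were tested on simulated data.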

Additional observations from a re-analysis of the deposited data

Results flagged for a closer look

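On component 1, O3 scored 103.7, far from the other 5 offshore-origin genotypes, and the share of host counts in the 200 rows with the highest loadings was 10.8% in its coral C3, far from the other offshore-origin corals. For OFAVBQ_DN223872_c0_g1, O6 at 30.1 CPM lay far below the other offshore-origin genotypes. At the offshore site In5 lay far from the other inshore-origin genotypes in 3 rows named for the interaction, with 0 CPM for OFAVBQ_DN303957_c0_g1, 62.3 CPM for OFAVBQ_DN175037_c0_g1 and 51.996 CPM for OFAVBQ_DN174110_c0_g2, in the library with 25.1% D. trenchii counts. These 6 flags came from 26 groups of values. Chance flags about 1 in 20 groups only where groups are independent and values normal, which was not tested. The 200 rows were picked on the component that flagged O3, and the rows named for the interaction were picked for large values. The number of flags is therefore not set against chance. The origin difference itself differed between transplant sites at 30 °C in 49 rows by edgeR's interaction test.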

How the results depend on the processing

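The count of 0 rows between origins became 3 with DESeq2, 1 higher and 2 lower in offshore-origin corals. Among these were OFAVBQ_DN223872_c0_g1 and OFAVBQ_DN204312_c3_g1. The count was 1 with corals as samples, 1 with a term for library numbers, and 0 to 1 with a genotype left out. The term for library numbers was also fitted with corals as samples. In both fits A3, A5 and A6, which share genotype In1, counted as separate samples. The count was 0 without In2, In6 and O3, a setting chosen after seeing the data. The interaction count of 49 became 95 with DESeq2, 397 with no low-count filter and 0 with no replicate block, where the genotypes are no longer paired. It was 0 with the symbiont ratio as a term, which was added after seeing the data and overlaps the interaction. It was 38 to 54 with a genotype left out. OFAVBQ_DN174110_c0_g2 lost its call in 13 of 18 alternatives and OFAVBQ_DN175037_c0_g1 in 4. Differences that never passed a test changed sign in a few settings: separation of origins was 0.00234 without O3 (range −0.00619 to 0.00234); spread was −0.00569 over the 500 most variable rows, −0.00144 without O1 and −0.00699 without O3 (range −0.00699 to 0.0162 with a genotype left out); detected rows differed by 121 at 5 counts and by 35.6 with In1 as A5 alone. Rows found in all genotypes of 1 origin and none of the other numbered 2 without In2, In6 and O3, and 0 to 1 with a genotype left out. The symbiont ratio kept its sign in all 17 alternatives (−3.17 to −0.91, the last without In5). The causes were not tested. With 6 genotypes per origin the interval of a difference lay within 2-fold for 58.0% of rows.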
